A study of Mus musculus with 6 samples.

Results

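The genes described here are the transcription factors that drive epithelial-mesenchymal transition (EMT), the cadherins exchanged during it and a pair of mesenchymal markers. The 10 genes listed were Snai1, Snai2, Twist1, Twist2, Zeb1, Zeb2, Cdh1, Cdh2, Vim and S100a4, and the members were the probe sets that the platform annotation assigned to exactly 1 of them. That gave 12 probe sets for 9 genes among 24173 probe sets in all. Both probe sets of Zeb2 carried a second gene symbol, so Zeb2 was not analysed here. The 9 genes were tested among 16537 genes, each represented by its brightest probe set.

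RNA from whole mouse lung, taken after exposure to naphthalene, was hybridised to single-channel arrays. Naphthalene injures the conducting airway because its club cells convert it to a toxic metabolite. The 3 wild-type samples were labelled 28, 29 and 30 days after naphthalene and the 3 Falcor-null samples 31, 32 and 33 days, so day and genotype cannot be told apart if those labels are actual days. Falcor is a long non-coding RNA gene beside Foxa2. All 6 samples shared a mixed CD1 and C57Bl6 strain label, and every sample had received naphthalene, so no uninjured lung enters the comparison. Nothing in the labels ties the samples to separate animals, so the p-values cover the spread among these 6 samples alone, and that spread may be technical.

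EMT is the process by which an epithelial cell loses its junctions and polarity and takes on a migratory, mesenchymal form. The Snail and ZEB zinc finger proteins repress epithelial genes, above all Cdh1, by binding E-boxes in DNA, and the Twist proteins are basic helix-loop-helix factors that act in the same programme. In adult lung most transcript of these factors belongs to cells that are already mesenchymal, endothelial or of blood origin, and in bulk tissue fewer cells of a type and less RNA per cell cannot be told apart.

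The arrays' medians lay between 6.69 and 6.74 on the log2 scale. The Falcor probe set, listed as 9030622O22Rik, gave a higher signal on arrays labelled Falcor-null (2.72-fold, limma adjusted p 0.0423), and its position within the gene, relative to the null allele, is not known here. This call was kept with 1 of the 6 arrays left out, wild type replicate 3, and lost without any of the other 5. Each direction given is that of Falcor-null by label against wild type. The 9 lung epithelial markers, which include Sftpc of alveolar type 2 cells and Scgb1a1 of club cells, were measured on all arrays, with a mean log2 signal between 11.24 and 11.33 in wild type and between 11.27 and 11.35 on arrays labelled Falcor-null.

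No EMT gene passed the test between genotypes. In limma with Benjamini-Hochberg adjustment over all 16537 genes, 0 of 9 genes had an adjusted p under 0.05, where 0.556% of all genes did. Snai2 and Zeb1 were higher on all 3 arrays labelled Falcor-null than on any wild-type array, while S100a4 and Vim were lower on all 3. After a second quantile normalization the groups of the brighter Vim probe set overlapped and those of the other 3 genes stayed apart. That normalization also set the groups of the brighter Cdh1 probe set apart, with Falcor-null higher. Centring the arrays on their medians did so for Twist2 and the dimmer Cdh1 probe set. In the deposited values 4 of 9 genes had groups that did not overlap, beside 19.5% of all genes (8.96% higher and 10.6% lower). At an unadjusted p of 0.05, S100a4 (lower) and Snai2 (higher) passed, 2 of 9 genes beside 13.8% of all genes (6.11% higher and 7.65% lower). In total 6 genes were higher and 3 lower, with a median log2 difference of 0.12, whereas the median over all genes was 0.0026.

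**Figure D1:**
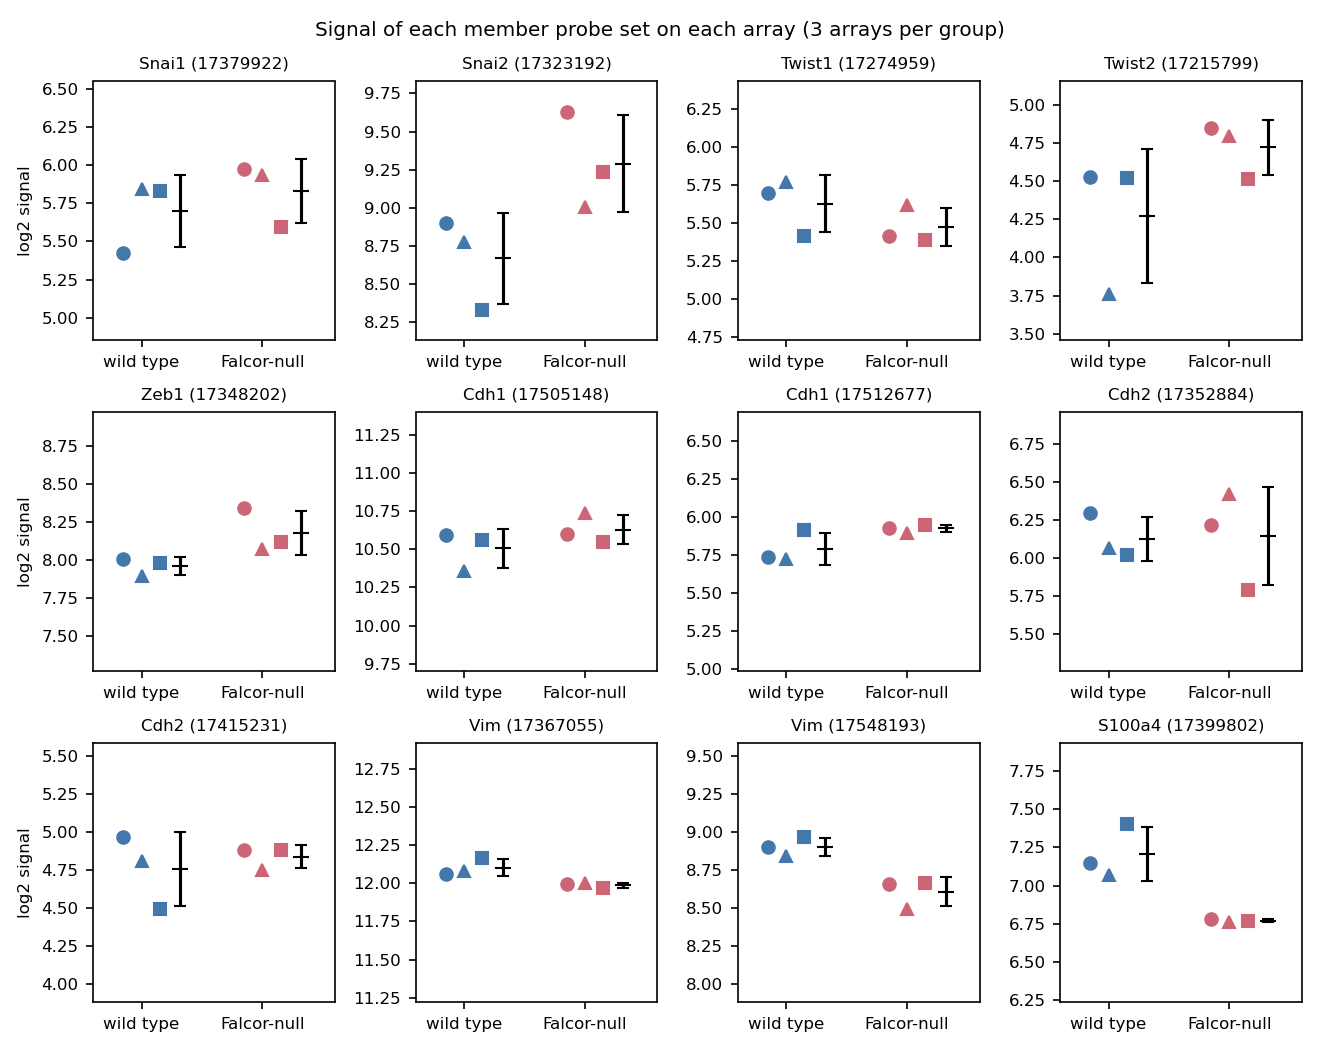
Log2 signal of the 12 member probe sets on the 3 wild-type (blue) and 3 Falcor-null (red) arrays, with circle, triangle and square for replicates 1, 2 and 3 and black bars for mean ± SD. Every panel spans the same height on the log2 scale. The Falcor-null points of Snai2 and Zeb1 all lie above the wild-type points, and those of S100a4 and both Vim probe sets all lie below them.

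Snai2 (also called Slug), a repressor of Cdh1 first known from neural crest and mesoderm, gave the largest difference of the 9 genes. Its log2 signal was 8.90, 8.77 and 8.33 in wild type and 9.63, 9.001 and 9.23 on arrays labelled Falcor-null (probe set 17323192). The groups were apart, but the gap between the highest wild-type and the lowest Falcor-null array was small beside the spread within each group. The means were 8.67 ± 0.30 and 9.29 ± 0.32 (SD, n = 3 each). Falcor-null minus wild type was 0.62 on the log2 scale (SE 0.20, 95% interval 0.16 to 1.08), or 1.54-fold, and did not pass in limma (adjusted p 0.229). Leaving out 1 array at a time gave differences from 0.45 to 0.76.

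Snai1 (Snail), the founding Cdh1 repressor of the family, had overlapping groups. It read 5.43, 5.84 and 5.83 in wild type and 5.97, 5.94 and 5.59 on arrays labelled Falcor-null (probe set 17379922). Wild type replicate 1 and Falcor-null replicate 3 were the low arrays of their groups. The log2 difference of 0.13 (SE 0.15, 95% interval -0.22 to 0.48; limma adjusted p 0.755) was -0.0027 without wild type replicate 1. The test of whether the Snai2 difference exceeds that of Snai1 was not made.

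The E-box that Snail and ZEB proteins bind preferentially is CAGGTG, read on either strand, within the wider class CANNTG. Promoter windows of 250 bases before the start site, from RefSeq on build GRCm38.p6, were found for 5 of the 9 genes: Snai1, Twist1, Twist2, Vim and S100a4. The Snai1 window held 1 CAGGTG match and no other CANNTG match, and none of the other 4 windows held either. Of 32851 promoter windows of this length, 17.2% held CAGGTG and 66.2% held CANNTG. The Snai1 window is shown because it is the one with the E-box, which stands in capitals on the opposite strand and begins 126 bases before the start site (chr2:167537945-167538194, plus strand).
Snai1: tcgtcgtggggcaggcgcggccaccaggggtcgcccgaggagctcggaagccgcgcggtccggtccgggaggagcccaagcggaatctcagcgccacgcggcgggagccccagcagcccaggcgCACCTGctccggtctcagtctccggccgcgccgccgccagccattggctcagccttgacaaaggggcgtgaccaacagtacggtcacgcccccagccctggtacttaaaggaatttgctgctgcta

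Twist1 and Twist2 are related basic helix-loop-helix factors of mesoderm and skin mesenchyme, and they pair with E proteins to bind E-boxes. Twist1 read 5.70, 5.77 and 5.41 in wild type and 5.41, 5.62 and 5.39 on arrays labelled Falcor-null (probe set 17274959). Its groups overlapped, with a log2 difference of -0.15 (SE 0.12, 95% interval -0.42 to 0.12; limma adjusted p 0.622). It was -0.08 without wild type replicate 2 and -0.26 without wild type replicate 3. Twist2 read 4.53, 3.76 and 4.52 in wild type and 4.85, 4.80 and 4.52 on arrays labelled Falcor-null (probe set 17215799). The low value of wild type replicate 2 set most of its log2 difference of 0.45 (SE 0.21, 95% interval -0.04 to 0.95; limma adjusted p 0.406), which was 0.20 without that array. The Twist2 probe set stood at percentile 1.34 of all genes by mean signal, and without detection calls its signal over background is unknown.

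Zeb1, a zinc finger repressor of Cdh1 and of the miR-200 genes, was higher on every array labelled Falcor-null, by less than Snai2. It read 8.01, 7.89 and 7.98 in wild type and 8.34, 8.07 and 8.12 on arrays labelled Falcor-null (probe set 17348202). Falcor-null replicate 1 stood above the other 5 arrays, as it did for Snai2. Zeb1 had a log2 difference of 0.21 (SE 0.09, 95% interval -0.0046 to 0.43), or 1.16-fold, and a limma adjusted p of 0.371. Without Falcor-null replicate 1 the Zeb1 difference was 0.13.

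The miR-200 microRNAs repress Zeb1 and Zeb2 and are repressed by them in turn. Probe sets for the precursors of 3 of the 6 microRNAs listed were measured, and none passed in limma (0 at an unadjusted p of 0.05). The log2 differences were 0.13 for Mir200c (adjusted p 0.655), 0.02 for Mir200a (adjusted p 0.966) and 0.0098 for Mir200b (adjusted p 0.987). RNA was primed from poly(A), per the labels' protocol, so these signals do not measure the mature forms. The mature strands that recognise ZEB transcripts are given because 2 seeds divide these 3 microRNAs, with the seed (bases 2 to 8) in capitals. The mature sequences of miR-200b and miR-200c share 1 seed and miR-200a has the other.
mmu-miR-200b-3p: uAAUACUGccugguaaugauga
mmu-miR-200c-3p: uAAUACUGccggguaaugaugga
mmu-miR-200a-3p: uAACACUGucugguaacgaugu

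Cdh1 encodes E-cadherin, the adhesion molecule of epithelial junctions whose loss defines EMT. Its brighter probe set, 17505148, read 10.59, 10.36 and 10.56 in wild type and 10.60, 10.74 and 10.55 on arrays labelled Falcor-null. The groups overlapped in the deposited values but were apart, with Falcor-null higher, after a second quantile normalization. The log2 difference was 0.12 (SE 0.10, 95% interval -0.10 to 0.35; limma adjusted p 0.620). It was 0.05 without wild type replicate 2 and 0.07 without Falcor-null replicate 2. The second probe set, 17512677, read 5.73, 5.73 and 5.91 in wild type and 5.93, 5.90 and 5.95 on arrays labelled Falcor-null. Its log2 difference of 0.13 had the same sign (adjusted p 0.527 in limma over every used probe set). The interval of the brighter probe set leaves room for a decrease of up to 0.10 on the log2 scale.

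Cdh2 encodes N-cadherin, the cadherin of mesenchyme, heart muscle, neurons and mesothelium that replaces E-cadherin in EMT. Probe set 17352884 read 6.29, 6.06 and 6.02 in wild type and 6.22, 6.42 and 5.79 on arrays labelled Falcor-null. The highest and the lowest of these 6 values both came from arrays labelled Falcor-null. Between genotypes this probe set differed by 0.02 on the log2 scale (SE 0.16, 95% interval -0.37 to 0.40; limma adjusted p 0.979), and the dimmer probe set 17415231 gave 0.08 (adjusted p 0.838 in limma over every used probe set). The 7 heart muscle markers were all higher, none passing, with a median log2 difference of 0.13. Of 6 mesothelial markers 5 were higher, of 4 measured cartilage markers 4 were higher and of 2 measured Schwann cell markers 1 was higher, with medians of 0.17, 0.14 and -0.04. No gene of these 4 lists passed in limma, and 0, 1, 1 and 0 had an unadjusted p under 0.05, beside 13.8% of all genes.

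The change of Cdh1 relative to another member was read within each array, where a scaling of the whole array cancels. Cdh1 minus Vim was -1.47, -1.72 and -1.60 in wild type and -1.39, -1.27 and -1.42 on arrays labelled Falcor-null, in log2 units. The groups were apart by a narrow gap, with a shift of 0.24 towards Cdh1 in an exact two-sided permutation test that gave p 0.1, the smallest that 3 against 3 arrays allow. Cdh1 minus Cdh2 shifted by 0.11 with overlapping groups (exact permutation p 0.5).

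Vim encodes vimentin, the intermediate filament of mesenchymal cells, endothelium and leukocytes. Its brighter probe set, 17367055, read 12.06, 12.08 and 12.17 in wild type and 11.99, 12.002 and 11.97 on arrays labelled Falcor-null. All 3 Falcor-null values lay below all wild-type values, by a small step. The log2 difference was -0.12 (SE 0.07, 95% interval -0.28 to 0.05), or 1.08-fold lower, with a limma adjusted p of 0.533. A second quantile normalization made it -0.04 (adjusted p 0.862) with overlapping groups, and averaging both probe sets made it -0.21 (adjusted p 0.278), while the dimmer probe set kept its groups apart after that normalization. The second probe set, 17548193, read 8.90, 8.84 and 8.96 in wild type and 8.66, 8.50 and 8.67 on arrays labelled Falcor-null. Its groups were apart too, with a log2 difference of -0.30 (SE 0.08, adjusted p 0.197 in limma over every used probe set). The brighter probe set reads within 2 log2 units of the highest value on any array, 13.903, where differences can be compressed.

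S100a4, a small calcium-binding protein also called fibroblast-specific protein, is used as a fibroblast marker in EMT studies and is abundant in macrophages and T cells as well. It read 7.15, 7.07 and 7.40 in wild type and 6.78, 6.76 and 6.76 on arrays labelled Falcor-null (probe set 17399802). The Falcor-null arrays were nearly identical and lay below every wild-type array. The means were 7.21 ± 0.18 and 6.77 ± 0.01 (SD, n = 3 each). The log2 difference of -0.44 (SE 0.10, 95% interval -0.67 to -0.20), or 1.36-fold lower, had the smallest p of the 9 genes but did not pass in limma (adjusted p 0.118). Over the alternative settings the adjusted p lay between 0.073 and 0.287 and the difference between -0.51 and -0.34.

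Vim and S100a4 were the genes with lower, separate groups, and their promoter windows are shown for that reason, from RefSeq on GRCm38.p6. Each held 1 TATA box sequence TATAAA (searched on both strands, in capitals), 32 bases before the start in Vim and 31 bases before it in S100a4. Twist1 held it 126 bases before its start, and 12.4% of the 32851 windows held it. This motif was chosen after the windows had been read. The Vim window is chr2:13574061-13574310 and the S100a4 window is chr3:90603520-90603769, both on the plus strand.
Vim: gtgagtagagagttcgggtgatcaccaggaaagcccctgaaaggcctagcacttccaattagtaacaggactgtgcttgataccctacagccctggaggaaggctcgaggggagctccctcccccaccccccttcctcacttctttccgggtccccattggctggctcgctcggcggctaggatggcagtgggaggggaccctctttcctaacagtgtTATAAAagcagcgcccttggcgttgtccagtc
S100a4: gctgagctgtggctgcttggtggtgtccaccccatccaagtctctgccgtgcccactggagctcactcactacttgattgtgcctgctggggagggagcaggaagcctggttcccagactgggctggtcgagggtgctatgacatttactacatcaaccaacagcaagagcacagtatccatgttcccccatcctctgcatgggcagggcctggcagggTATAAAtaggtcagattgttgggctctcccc

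**Figure D2:**
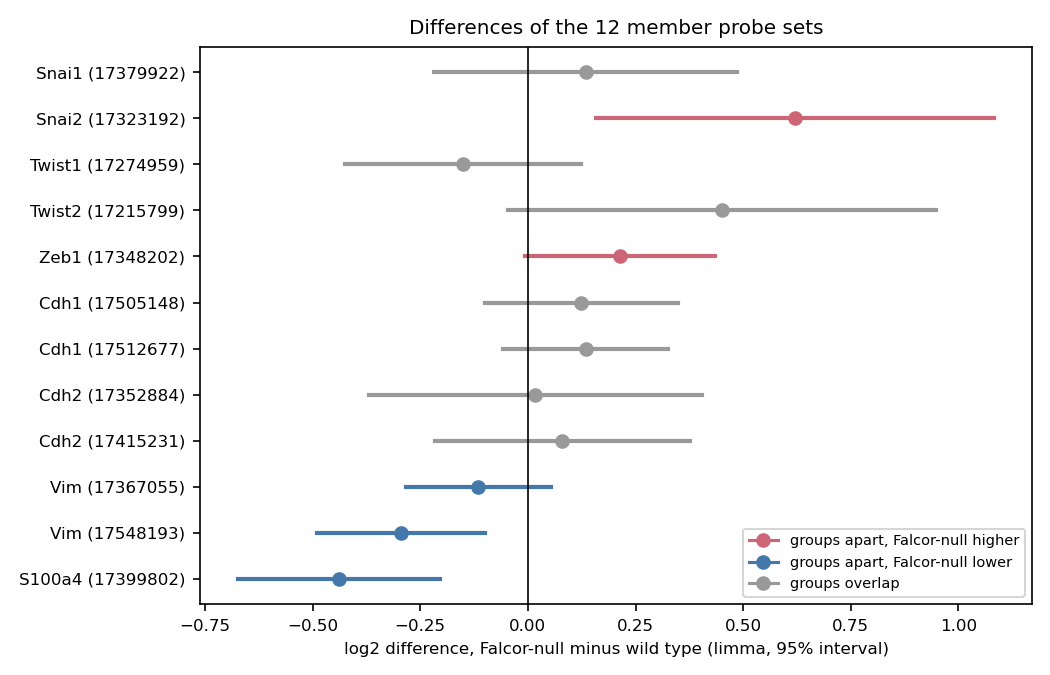
Log2 difference, Falcor-null minus wild type, of each member probe set (points) with its 95% interval from limma over every used probe set (lines), coloured by whether the groups of 3 arrays were apart. The intervals of Snai2, S100a4 and the second Vim probe set do not include 0, and none of the 12 has an adjusted p under 0.05.

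Markers of blood cells lay mostly lower and markers of stroma mostly higher. Of 8 leukocyte markers all 8 were lower with groups apart, with a median log2 difference of -0.58, and Cd52 passed (2.11-fold lower, limma adjusted p 0.00651). The mean level of this list ran from 8.65 to 8.90 in wild type and from 8.06 to 8.22 on arrays labelled Falcor-null. All 7 measured T cell markers (3 passing, median -1.15), all 6 measured B and plasma cell markers (4 passing, median -0.80) and 9 of 10 macrophage markers (none passing in limma, 7 at an unadjusted p of 0.05, median -0.49) were lower. Over all genes, 10.6% were lower with groups apart, 0.46% passed lower and 7.65% were lower at an unadjusted p of 0.05. Without wild type replicate 2 the passing genes numbered 1 for T cells and 2 for B and plasma cells, without Falcor-null replicate 2 they numbered 0 and 2, and without Falcor-null replicate 1 the B and plasma cell count was 2. Cd3g, a subunit of the T cell receptor complex, did not pass with any 1 of the 6 arrays left out (adjusted p 0.0518 to 0.0989). Without wild type replicate 1, 3 leukocyte markers passed and so did the macrophage gene Chil3 (adjusted p 0.0413). The mean levels of the T cell, B and plasma cell and macrophage lists ran from 7.32 to 7.56 in wild type and from 6.48 to 6.75 on arrays labelled Falcor-null for T cells, from 8.60 to 8.90 and from 7.36 to 7.51 for B and plasma cells, and from 8.89 to 9.27 and from 8.38 to 8.66 for macrophages. S100a4 and Vim lay lower on the same arrays, and the part of these cells in their values was not tested.

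Stromal and endothelial markers lay mostly higher. Of 10 fibroblast markers 9 were higher (median 0.25) and none passed in limma. Higher at an unadjusted p of 0.05 were 4 of them, beside 6.11% of all genes. The list's mean level ran from 9.01 to 9.21 in wild type and from 9.25 to 9.43 on arrays labelled Falcor-null, highest on Falcor-null replicate 1. Dpt, a matrix protein of fibroblasts, had the smallest p of the list (log2 difference 0.55, adjusted p 0.0824). All 8 endothelial markers were higher (median 0.21, none passing in limma, 3 at an unadjusted p of 0.05), with means of 10.17 to 10.21 and 10.44 to 10.51. Groups were apart in 5 of the 8, beside 8.96% of all genes higher with groups apart. All 7 smooth muscle markers were higher (median 0.17) and 1 passed, with means of 8.38 to 8.48 in wild type and 8.48 to 8.85 on arrays labelled Falcor-null, so that the groups nearly touched. Snai2 and Zeb1 lay higher on the same arrays, while Vim, also a gene of mesenchyme and endothelium, and Twist1 (log2 difference -0.15) were lower. The part of stromal and endothelial cells in the values of these genes was not tested. The 9 lung epithelial markers had a median difference of 0.04, with 6 higher and 3 lower. Among them Sftpd, a collectin of surfactant, was lower with groups apart (-0.47, adjusted p 0.210), while Ager and Hopx, genes of flat alveolar cells, were higher with groups apart (0.24 and 0.15, adjusted p 0.283 and 0.539). Sftpc, Sftpb and Scgb1a1 read near the top of the scale, where differences can be compressed.

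**Figure D3:**
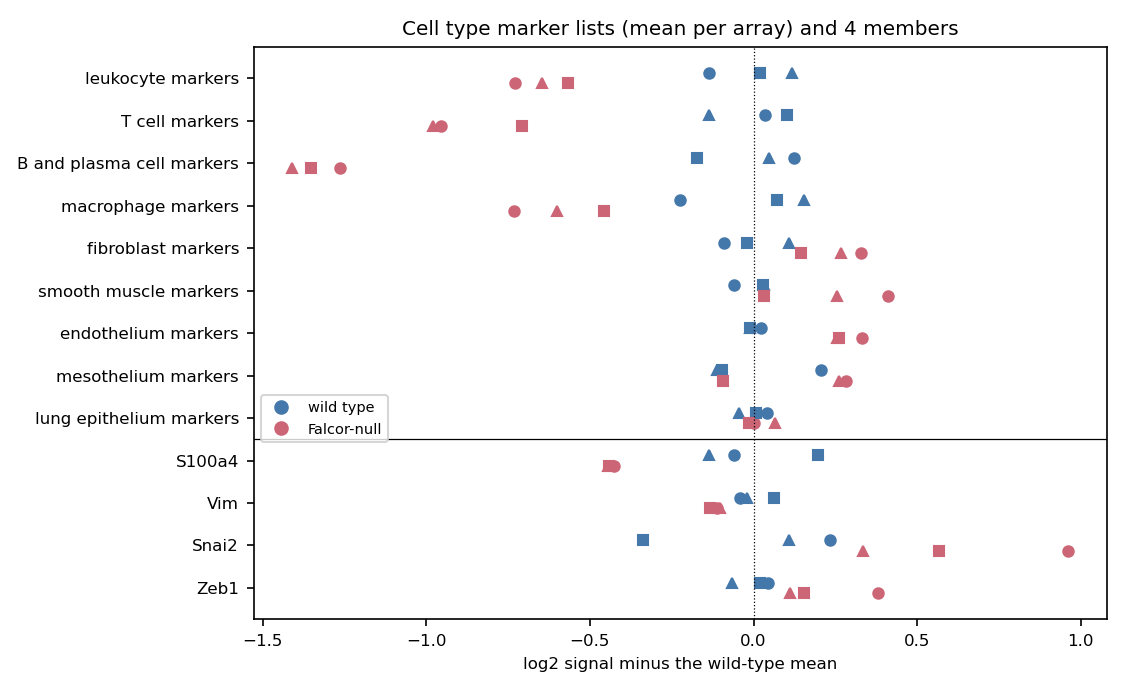
Mean log2 signal of 9 cell type marker lists, and signal of the 4 members whose groups were apart, on each array after subtraction of the wild-type mean (wild type blue, Falcor-null red; circle, triangle and square are replicates 1, 2 and 3). The leukocyte, T cell, B cell and macrophage lists lie to the left with S100a4 and Vim, the fibroblast and endothelial lists to the right with Snai2 and Zeb1.

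Other transcription factors of EMT did not pass either. Of 14 listed, 13 were measured, 11 higher and 2 lower, with a median log2 difference of 0.10. In limma 0 passed, and 1 had an unadjusted p under 0.05, beside 13.8% of all genes. Sox4, a factor that acts with TGF-beta in EMT, gave 0.37 (adjusted p 0.297), with 7.98, 8.02 and 8.07 in wild type and 8.55, 8.57 and 8.07 on arrays labelled Falcor-null. Its value on Falcor-null replicate 3 lay within the wild-type range. Tcf4, an E protein partner of Twist, gave 0.19 (adjusted p 0.397), Foxc2 gave 0.22 (adjusted p 0.433) and Klf8, a repressor of Cdh1, gave -0.20 (adjusted p 0.430).

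The Id proteins tie up E proteins and so keep Twist from pairing with them. Groups were separate in 3 of the 4 genes, beside 19.5% of all genes. Id1 read 7.53, 7.33 and 7.52 in wild type and 7.88, 7.88 and 7.80 on arrays labelled Falcor-null. The log2 difference was 0.39 (SE 0.08, limma adjusted p 0.104). Id3 gave 0.28 (adjusted p 0.198), Id4 gave 0.19 (adjusted p 0.433) and Id2 gave -0.33 (adjusted p 0.233). Thus Id2 lay on the other side from its relatives. None of the 4 passed in limma, and 3 had an unadjusted p under 0.05, beside 13.8% of all genes.

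Factors that hold cells in the epithelial state divided in both directions. Of 12 measured, 5 were higher and 7 lower, with 0 passing in limma and a median log2 difference of -0.03. At an unadjusted p of 0.05, 3 of 12 passed, beside 13.8% of all genes. Ovol1, a zinc finger repressor that opposes Zeb1, read 5.50, 5.35 and 5.45 in wild type and 5.11, 4.98 and 5.0004 on arrays labelled Falcor-null. The log2 difference was -0.40 (adjusted p 0.0880). Klf4 and Klf5, Krüppel-like factors of epithelium and, for Klf4, also of endothelium, gave 0.38 (adjusted p 0.252) and 0.26 (adjusted p 0.238). The epithelial ETS factor Ehf gave -0.33 (adjusted p 0.387). The corepressors that Snail and ZEB proteins recruit and the genes of Snail turnover had 11 of 13 measured members higher, none passing (0 at an unadjusted p of 0.05). Their differences lay within -0.17 (Fbxl14, a ubiquitin ligase subunit for Snail proteins) and 0.16 (Btrc, another one). Groups were apart in 5 of the 13, all higher, beside 8.96% of all genes higher with groups apart.

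Among the other cadherins, Cdh16 fell. Cdh16, a cadherin first described in kidney tubule epithelium, read 7.31, 7.23 and 7.30 in wild type and 6.61, 6.73 and 6.61 on arrays labelled Falcor-null. The groups were far apart beside their spread, and the log2 difference was -0.63 (SE 0.08), or 1.55-fold lower (limma adjusted p 0.0229). With 1 array left out in turn the call was lost in all 6 cases, with adjusted p-values from 0.0554 to 0.0946 and differences from -0.67 to -0.61. It was the 1 gene to pass among 11 measured of 21 cadherins listed, of which 9 were higher and 2 lower (median 0.11).

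Cdh11, the cadherin of fibroblasts and osteoblasts, read 9.10, 9.33 and 9.14 in wild type and 9.90, 9.52 and 9.59 on arrays labelled Falcor-null. The groups were apart, with a log2 difference of 0.48 (SE 0.12) that did not pass in limma (adjusted p 0.155). Cdh13, a cadherin without a cytoplasmic domain found on vessels and muscle, gave 0.40 (adjusted p 0.518), which was 0.20 once Falcor-null replicate 2 was left out and 0.70 once replicate 3 of that group was. Cdh4 gave 0.18 (adjusted p 0.509), or 0.09 without Falcor-null replicate 3. The catenins and their partners, some of which link cadherins to actin, had 9 of 11 measured members higher and 0 passing, with a median of 0.12. An unadjusted p under 0.05 was found for 1 of the 11, beside 13.8% of all genes. Arvcf, a relative of p120 catenin, gave 0.32 (adjusted p 0.280) and Ctnnd1, p120 catenin itself, gave 0.18 (adjusted p 0.374).

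Relatives of Vim and of S100a4 did not all lie on the same side as they did. Of 8 measured intermediate filament and filament-linker genes 7 were higher and 1 lower, with 0 passing in limma and a median log2 difference of 0.11. At an unadjusted p of 0.05, 1 of 8 passed, beside 13.8% of all genes. The lower gene was Prph (-0.14, limma adjusted p 0.580). Nes, which encodes nestin, a filament protein that assembles with vimentin, read 7.59, 7.48 and 7.38 in wild type and 7.81, 7.97 and 8.04 on arrays labelled Falcor-null (difference 0.46, adjusted p 0.101). Its groups were apart, on the opposite side from Vim. Of 12 other S100 genes measured 6 were higher and 6 lower, with 0 passing in limma. An unadjusted p under 0.05 was found for 3 of the 12, beside 13.8% of all genes. S100a8, a neutrophil granule protein, gave -1.41 (adjusted p 0.180), or -0.90 without wild type replicate 3, which read 9.17 where the other wild-type arrays read 7.67 and 7.60. S100g, a calcium carrier of epithelium, gave -0.53 (adjusted p 0.175), S100a1 gave -0.35 (adjusted p 0.255) and S100a16 gave 0.19 (adjusted p 0.366).

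Of 21 mesenchymal genes measured, 16 were higher and 5 lower, with a median log2 difference of 0.20, and 7 had an unadjusted p under 0.05 (6 higher and 1 lower), beside 13.8% of all genes. Tagln, an actin-binding protein of smooth muscle and myofibroblasts, rose and was the 1 gene to pass, as it was among the smooth muscle markers. It read 8.69, 8.78 and 8.76 in wild type and 9.38, 9.28 and 9.21 on arrays labelled Falcor-null. The log2 difference was 0.55 (SE 0.08), or 1.46-fold (limma adjusted p 0.0407). The Tagln call was lost with any 1 of the 6 arrays left out, with adjusted p-values from 0.0754 to 0.141 and differences from 0.50 to 0.59. Fn1, fibronectin, gave 0.28 (adjusted p 0.283) and the matrix protein gene Sparc gave 0.24 (adjusted p 0.270), while Thy1, a surface protein of fibroblasts and T cells, gave -0.42 (adjusted p 0.250).

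The 22 epithelial genes, among them targets of Snail and ZEB repression, divided evenly with 11 higher and 11 lower. Their median log2 difference was -0.0096, 0 passed in limma and 4 had an unadjusted p under 0.05, beside 13.8% of all genes. Epcam, an epithelial surface protein, gave 0.0051 (adjusted p 0.986) and was picked after its value was seen. The tight junction genes Marveld2 and Ocln gave 0.34 (adjusted p 0.267) and 0.25 (adjusted p 0.352), the laminin chain Lama3 gave 0.32 (adjusted p 0.212) and the membrane protease St14 gave -0.23 (adjusted p 0.324).

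**Figure D4:**
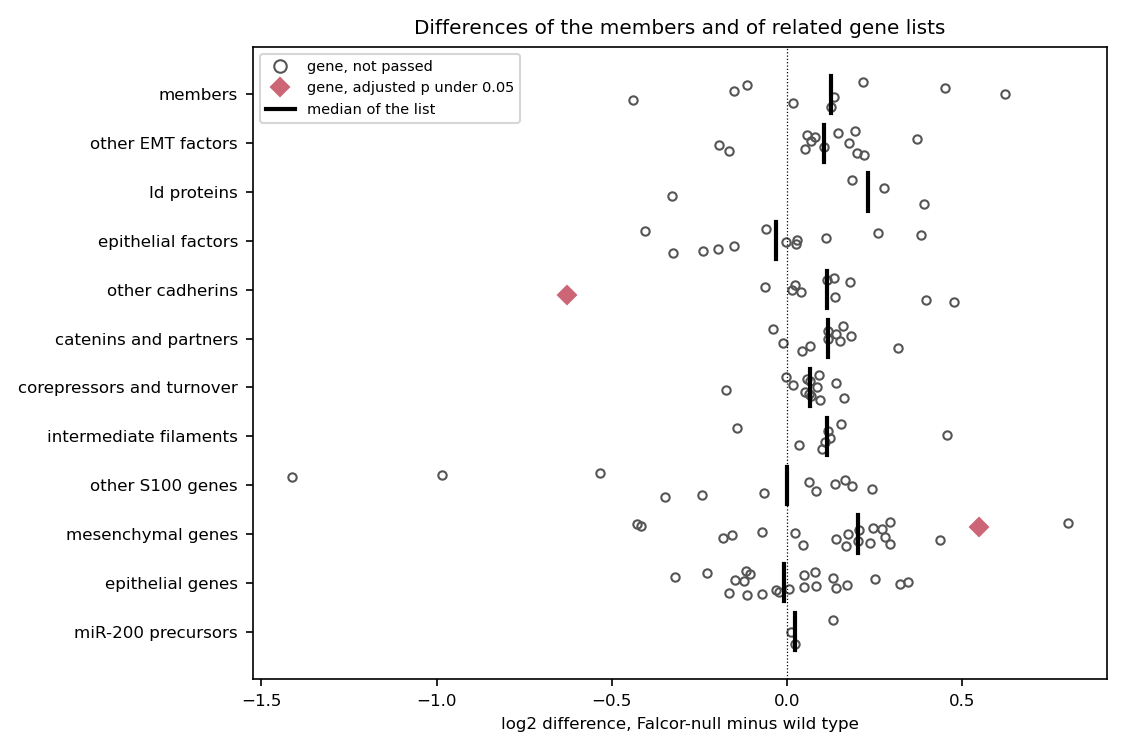
Log2 difference, Falcor-null minus wild type, of every measured gene in the EMT members and in 11 related lists (circles; diamonds passed an adjusted p of 0.05), with a bar at each list's median. Cdh16 and Tagln are the 2 diamonds, and the medians lie between -0.03 and 0.23.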

How the data were processed

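Each array contributed 1 column of log2 signal values for 24173 probe sets, deposited in a single table. The tools listed in the submitters' processing notes are oligo, RMA and limma, with no version. RMA brings the arrays' distributions together, so a change shared by most genes could be missed. The deposited distributions were not fully equal, with a lower median on every array labelled Falcor-null than on any wild-type array. The lowest value per array was 3.22, 3.22 and 3.19 in wild type and 2.32, 2.09 and 2.42 on arrays labelled Falcor-null, so the bottom of the scale differed too. Row filters and the genome build are not given in the sources used here. Exactly 1 gene symbol was annotated to 17476 probe sets, and 1308 with several and 5389 with none were left out. The brightest probe set stood for a gene. Falcor-null was compared with wild type (3 arrays each) by limma 3.58.1 in R 4.3.3 with no covariate, two-sided, with Benjamini-Hochberg adjustment over 16537 genes and a threshold of 0.05. Each member probe set was also read from a fit over all 17476.

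The members and gene lists were chosen with earlier results of these data known. Besides the members, each list is described by its counts. The genes named were drawn from those that passed, filled up to 4 by the smallest p (up to 3 for cell type markers). Not all of these are printed, and few of the cell type markers are. The counts of a list stand beside the shares over all genes, 19.5% with groups apart and 13.8% with an unadjusted p under 0.05. Cell type lists were read as mean log2 signal per array. The scripts were tested on simulated data, where 48% of log2 changes of 0.5 and 86% of changes of 1 were recovered. A gene that did not pass may therefore still differ. The plots were made with Python 3.11.15 and matplotlib 3.10.9. Alternative settings blocked on replicate number, centred the arrays on their medians, repeated the quantile normalization, used a trended or robust prior or array weights, dropped dim probe sets (below percentile 30 or 50), averaged a gene's probe sets or tested each one, set the threshold to 0.1 and left out single arrays.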

Additional observations from a re-analysis of the deposited data

How the results depend on the processing

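No EMT gene passed an adjusted p of 0.05 in limma in any of 147 values of the 9 genes under the alternatives. Of these values 142 kept the direction, but many could not change it. The block, the trended or robust prior, the dim filters, the test of each probe set and the threshold left each gene's difference unchanged. The changes of direction arose when 1 array was left out, with differences from -0.0027 to 0.25 for Snai1 and from -0.12 to 0.19 for Cdh2. The precursors Mir200a (-0.11 to 0.13) and Mir200b (-0.061 to 0.15) also changed sign there. Dim filters left out Twist1 and Twist2 (percentiles 30 and 50) and Snai1 and Cdh2 (percentile 50). Cdh1 minus Vim shifted by 0.18 to 0.30 with 1 array left out, and Cdh1 minus Cdh2 by -0.03 to 0.19. With probe sets averaged, Cdh1 differed by 0.13 and Vim by -0.21. After a second quantile normalization the values were 0.16 and -0.04, so the shift depends on the probe set and on scaling that varies with intensity. Over all genes, 92 passed, 16 higher and 76 lower. With the replicate number as a block 32 passed (3 higher, 29 lower), and at a threshold of 0.1 280 passed (73 higher, 207 lower). With an intensity trend 32 were higher, and with dim probe sets left out 26 (percentile 30) and 29 (percentile 50). Leaving out 1 array gave 18 to 89 genes (3 to 13 higher, 15 to 76 lower). The count was 89 with wild type replicate 1 left out, 26 with its replicate 2 left out and 49 with its replicate 3 left out. It was 24 with Falcor-null replicate 1, 18 with replicate 2 and 37 with replicate 3 left out. The cause was not tested. Deviations of same-numbered arrays from their group means correlated at 0.02, -0.0025 and -0.08, so the numbers were not taken to pair the samples. With the block the calls of Cdh16 (adjusted p 0.0953), Tagln (0.124), Falcor (0.119), Cd3g (0.106), Mzb1 (0.0671) and Cd79a (0.0925) were lost and Chil3 passed (0.0346), while no EMT gene changed its side of the threshold. No detection calls were used, so how far a dim probe set stands above background is unknown.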
